A study of Mus musculus with 6 samples.

Results

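The myelin genes described here are Mbp, Mobp, Mog, Mag, Cnp, Ugt8a, Mal, Tspan2 and Myrf, measured in primary mouse microglial cultures with and without the adaptor protein Dap12. Every probe set that the platform annotation gave exactly 1 of these symbols was taken, which was 26 of 45101 probe sets and 9 of the 18194 genes so annotated. The comparison is of 3 Dap12-deficient arrays (Dap12-ko in the labels) with 3 wild-type arrays (wt), and no other treatment is labelled for either group. Each array is called a culture below, though the labels do not say how many cultures stand behind it. Dap12, encoded by Tyrobp, passes signals of myeloid surface receptors into the cell. The labels give no strain, age or allele, nor the animals behind each array, so the p-values below measure only the spread between these 6 arrays. Values are linear array signals scaled by the authors to the same mean on each array, and differences are of log2(signal + 16), Dap12-deficient minus wild-type.

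Myelin is the layered membrane that oligodendrocytes wrap around axons in the brain. Its compact layers are held together by small basic proteins, its surface and its contact with the axon carry immunoglobulin-like proteins, and its membrane is rich in galactolipids made by dedicated enzymes. Microglia do not build myelin. They take it up and degrade it, and primary microglial cultures are prepared from mixed brain cells in which oligodendrocytes can be present. In a culture measured in bulk, fewer cells of a type and less RNA per cell cannot be told apart.

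The targeted gene separated the groups. Tyrobp had signals of 125, 96.4 and 96.2 in Dap12-deficient cultures and 5584, 7271 and 5396 in wild-type cultures (log2 difference -5.64, SE 0.20, limma adjusted p = 8.14e-07). The scaled mean was the same on every array, and median signals ranged between 14.6 and 16.5 in Dap12-deficient and between 11.9 and 14.0 in wild-type cultures. The summed signal of 15 microglial markers lay between 25618 and 38477 in Dap12-deficient and between 31109 and 43948 in wild-type cultures. Single markers differed widely in level, from Siglech, between 15.7 and 38.3 over the 6 cultures, to Csf1r, between 5439 and 9522.

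All 9 myelin genes had a lower mean in the Dap12-deficient cultures, by their brightest probe set, but none passed the test across all probe sets. Their log2 differences lay between -2.34 and -0.71, with a median of -1.58. Over the 12875 genes tested the median was -0.03, and 54.8% were lower. The limma adjusted p lay between 0.164 and 0.464, so 0 of 9 passed, against 0.0155% of all genes. At an unadjusted p under 0.05 there were 9 of 9, against 4.87% of all genes called lower by that rule. The 3 Dap12-deficient arrays lay below all 3 wild-type arrays for 1 of the 9 genes, Myrf, against 8.85% of all genes. Myrf passed the filter on mean signal (8.51) only through its wild-type cultures, so its place in these counts is no support. The 9 genes were chosen with earlier results of these data known, so their shares are a description and not independent support. The Dap12-deficient cultures were far from alike, and for 6 of 9 genes their 3 arrays spanned more on the log2 scale than the difference between the groups.

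**Figure D1:**
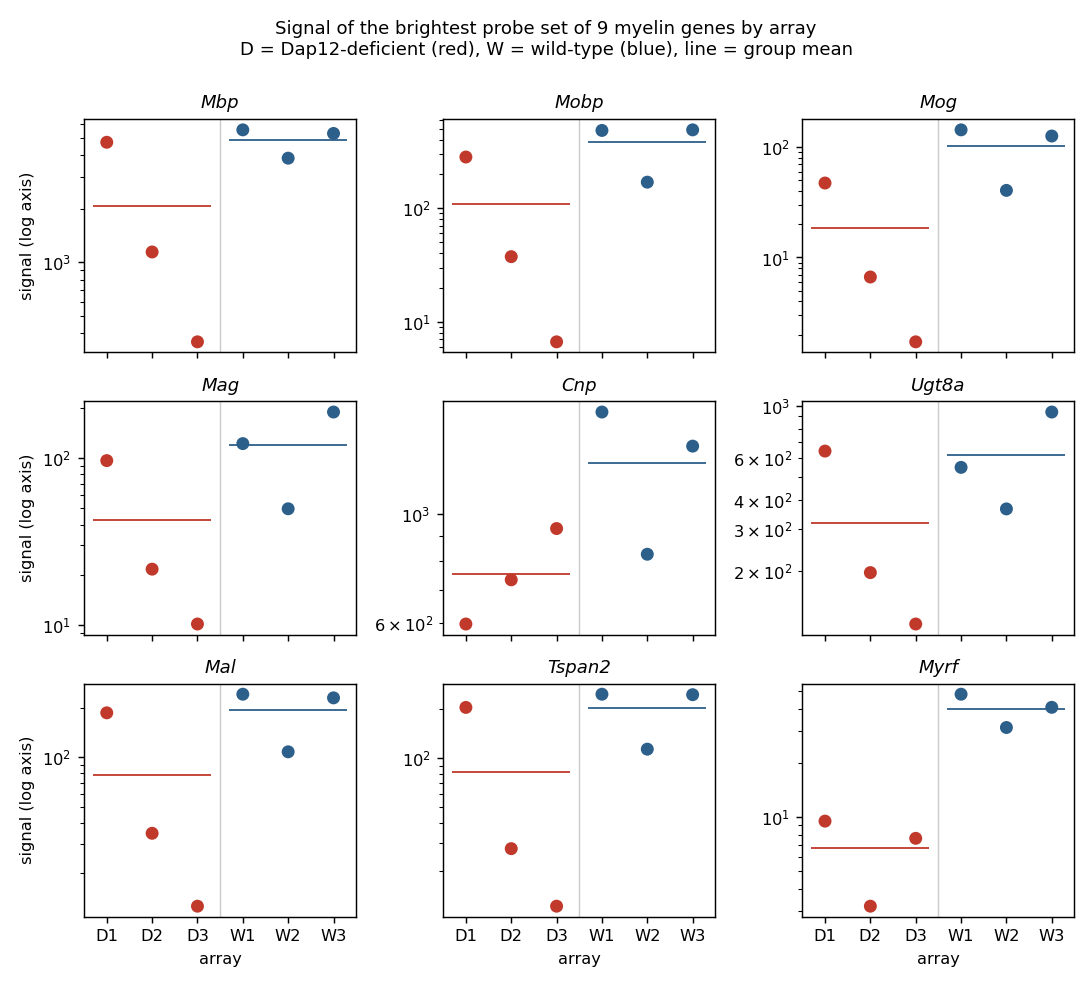
Signal (log axis) of the brightest probe set of each of 9 myelin genes on 3 Dap12-deficient (D, red) and 3 wild-type (W, blue) arrays, with lines at the group means of the signal. Dap12-deficient array 1 lies within or above the wild-type range for 7 genes, as it does for 63.6% of all genes tested. Only Myrf has 3 red points below all blue points, and it passed the filter on mean signal only through its wild-type arrays.

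Mbp and Mobp encode basic proteins of the cytoplasmic face of compact myelin. Mbp, which binds the 2 facing membrane leaflets together, had signals of 4714, 1142 and 358 in Dap12-deficient cultures 1, 2 and 3 and of 5535, 3839 and 5283 in wild-type cultures 1, 2 and 3. Dap12-deficient culture 1 thus lay among the wild-type cultures, while cultures 2 and 3 lay below all of them. The means were 2071 ± 2322 and 4886 ± 915 (SD, n = 3 each), a log2 difference of -1.93 (SE 0.68, adjusted p = 0.373 in limma). Mobp, the myelin-associated oligodendrocyte basic protein, had 282, 37.4 and 6.66 in Dap12-deficient and 483, 169 and 489 in wild-type cultures. Its groups overlapped through Dap12-deficient culture 1 and wild-type culture 2, and its log2 difference of -2.34 (SE 0.76, adjusted p = 0.355) was the largest of the 9. The signal of Mbp was 13.2-fold higher in Dap12-deficient culture 1 than in culture 3, and no such ratio is given for Mobp, whose signal in culture 3 was below the filter on mean signal of 8.51.

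Mog and Mag encode immunoglobulin-like membrane proteins. Mog, on the outermost surface of the sheath and the target of antibodies in demyelinating disease, had signals of 47.2, 6.65 and 1.72 in Dap12-deficient and 143, 40.5 and 126 in wild-type cultures. Only wild-type culture 2 was below Dap12-deficient culture 1. Mog had a log2 difference of -1.88 (SE 0.49, adjusted p = 0.311 in limma). Mag, which sits on the innermost layer facing the axon and binds sialic acid, had 96.4, 21.6 and 10.2 in Dap12-deficient and 122, 49.7 and 188 in wild-type cultures. Its log2 difference was -1.35 (SE 0.52, adjusted p = 0.407), again with Dap12-deficient culture 1 above wild-type culture 2. Mag lies on chromosome 7 like Tyrobp, with 31 protein-coding genes between them in the RefSeq annotation. The other members lie on other chromosomes.

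Ugt8a, Mal and Tspan2 concern the lipid and membrane of the sheath. Ugt8a, the enzyme that makes galactosylceramide, the main galactolipid of myelin, had signals of 642, 197 and 119 in Dap12-deficient and 548, 366 and 939 in wild-type cultures. Here Dap12-deficient culture 1 was above 2 of the 3 wild-type cultures, with a log2 difference of -1.15 (SE 0.51, adjusted p = 0.464 in limma). Mal, a proteolipid of glycolipid-rich membrane, had 186, 34.8 and 12.6 in Dap12-deficient and 241, 108 and 229 in wild-type cultures, a log2 difference of -1.58 (SE 0.58, adjusted p = 0.388). Tspan2, a tetraspanin of oligodendrocytes, had 205, 27.6 and 12.2 in Dap12-deficient and 248, 114 and 246 in wild-type cultures, a log2 difference of -1.68 (SE 0.62, adjusted p = 0.388). Mbp, Mog, Mal and Tspan2 placed the 6 cultures in the same order, with Dap12-deficient cultures 3 and 2 lowest, then wild-type culture 2, Dap12-deficient culture 1 and wild-type cultures 3 and 1.

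In Cnp and Myrf the Dap12-deficient cultures did not stand in the order 1 above 2 above 3. Cnp, a phosphodiesterase of the uncompacted, cytoplasm-filled parts of the sheath, had 597, 734 and 933 in Dap12-deficient and 1609, 828 and 1372 in wild-type cultures by its brightest probe set. Culture 1 was the lowest of the Dap12-deficient cultures and culture 3 the highest, the reverse of Mbp, and only culture 3 was above a wild-type culture. Its log2 difference was -0.71 (SE 0.27, limma adjusted p = 0.395). Myrf, the membrane-bound transcription factor that switches on myelin genes in differentiating oligodendrocytes, had 9.51, 3.21 and 7.63 in Dap12-deficient and 48.1, 31.4 and 40.7 in wild-type cultures. All 3 Dap12-deficient cultures were below the wild-type range, culture 1 included, with a log2 difference of -1.30 (SE 0.20, adjusted p = 0.164). The Dap12-deficient mean of Myrf, 6.78, is below the filter on mean signal of 8.51, which Myrf passed through its wild-type mean of 40.1, so its groups had to differ and their separation is no support. Its Dap12-deficient signals are also below the pseudocount of 16, which narrows their spread on the log2 scale and makes the log2 difference understate the ratio of the signals.

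Up to 250 bases before the annotated start are shown for 4 of the 7 members whose windows were searched. They are the 4 whose window held a match to the motifs below, so the display was chosen on the matches. The sequences are RefSeq's (GRCm38.p6), each ends at or before the first annotated transcribed base, and reads 5′ to 3′ on the gene's own strand. Capitals mark ACAAAG or its reverse complement CTTTGT, a core that SOX factors such as Sox10 bind, and the core bound by Myrf, as CTGGCAC in one form and as CTGGTAC in the other, on either strand.
Mobp: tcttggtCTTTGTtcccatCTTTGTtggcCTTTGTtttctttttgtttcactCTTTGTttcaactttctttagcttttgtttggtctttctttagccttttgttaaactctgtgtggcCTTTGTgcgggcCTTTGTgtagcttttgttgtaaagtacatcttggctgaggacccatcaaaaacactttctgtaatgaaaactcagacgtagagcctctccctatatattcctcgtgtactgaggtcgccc
Mog: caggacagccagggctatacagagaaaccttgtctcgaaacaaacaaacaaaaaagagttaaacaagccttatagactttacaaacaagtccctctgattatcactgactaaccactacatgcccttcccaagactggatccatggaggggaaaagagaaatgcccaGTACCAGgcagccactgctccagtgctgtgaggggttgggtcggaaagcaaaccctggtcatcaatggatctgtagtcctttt
Mag: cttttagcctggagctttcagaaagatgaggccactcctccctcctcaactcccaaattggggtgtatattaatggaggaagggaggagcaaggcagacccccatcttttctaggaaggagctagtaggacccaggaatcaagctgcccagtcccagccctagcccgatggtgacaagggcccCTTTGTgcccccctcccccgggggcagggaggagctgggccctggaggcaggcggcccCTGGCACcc
Cnp: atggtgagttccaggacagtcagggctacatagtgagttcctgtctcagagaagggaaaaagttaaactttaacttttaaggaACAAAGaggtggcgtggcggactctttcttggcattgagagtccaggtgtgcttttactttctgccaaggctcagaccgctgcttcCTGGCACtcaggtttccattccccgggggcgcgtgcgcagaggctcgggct
The windows are chr9:120149492-120149741 on the plus strand for Mobp, chr17:37023399-37023648 on the minus strand for Mog, chr7:30914923-30915172 on the minus strand for Mag and chr11:100574689-100574908, 220 bases, on the plus strand for Cnp.

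The Mobp window held 6 matches to ACAAAG on either strand and the Mag and Cnp windows 1 each. Of all 32851 promoter windows of 250 bases in the table, 16.5% held at least 1 such match and 2 held 5 or more. A second SOX core, ACAATG, in 10.7% of all windows, was in none of the 7 members' windows searched. The Myrf core CTGGCAC was in the Mag and Cnp windows, against 4.19% of all windows, and CTGGTAC in the Mog window, against 1.83%. The windows of Ugt8a, Mal and Tspan2 held none of these cores. No matches overlapped in the windows shown, the letters were chosen with the sequences in view, and a match is a description of the sequence and no evidence of binding.

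Across the 9 genes the cultures took much the same places. Dap12-deficient cultures 2 and 3 were both below all wild-type cultures for 8 of 9 genes, which held for 14.9% of all genes tested, with Cnp as the exception. Myrf, which passed the filter on mean signal only through its wild-type cultures, is among the 8. The order of culture 1 above 2 above 3 held for 7 of 9 genes, against 18.5% of all genes, with Cnp and Myrf as exceptions. In culture 3 the signals of Mobp, Mog, Mag, Mal and Tspan2 were below the pseudocount of 16. The 3 Dap12-deficient arrays spanned 2 or more on the log2(signal + 16) scale for 6 of 9 genes, against 0.52% of all genes. The median span was 2.28 on the log2 scale in Dap12-deficient and 1.05 in wild-type cultures for the myelin genes, against 0.49 and 0.38 for all genes.

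Wild-type culture 2 was the lowest of its group for 9 of 9 genes, against 30.6% of all genes. Wild-type culture 1 had 1.44-fold to 3.53-fold its signal, and wild-type culture 3 had 1.29-fold to 3.79-fold its signal. After each gene was centred on its own mean, the mean of the 9 genes on the log2 scale was 0.43, -1.09 and -1.67 in Dap12-deficient cultures 1, 2 and 3 and 1.07, 0.12 and 1.14 in wild-type cultures 1, 2 and 3. Wild-type culture 2 and Dap12-deficient culture 3 are the 2 whose titles carry a single number, where the other 4 titles join 2 numbers. The labels do not explain these numbers. With a term for the kind of title the differences of the 9 genes were as without it, since each kind holds the groups in equal proportion, with adjusted p between 0.297 and 0.461. Among the 4 cultures with joined numbers, the log2 difference was -1.21 for Mbp, -1.99 for Mobp, -1.99 for Mog and -1.45 for Myrf. The 2 with a single number differed by -3.37 for Mbp, -3.03 for Mobp, -1.67 for Mog and -1.01 for Myrf, and by 0.17 in the opposite direction for Cnp.

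Other probe sets of the same genes were mostly lower too. Of 26 probe sets, 24 were bright enough to be tested, and 24 of 24 had a negative log2 difference. None passed (0 of 24, against 0.0074% of all probe sets tested), 20 of 24 had an unadjusted p under 0.05 (3.61% of all were lower by that rule), and 6 of 24 had arrays that did not overlap (6.89% of all were lower by that rule). Probe sets of a gene share its transcripts and are not independent. The probe set of Myrf, which passed the filter on mean signal only through its wild-type cultures, is among the 20 and the 6. The 2 probe sets too dim for the test were both of Mobp and had log2 differences of -0.59 and 0.0049. With the mean of all tested probe sets in place of the brightest, the median over the 9 genes was -1.30.

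**Figure D2:**
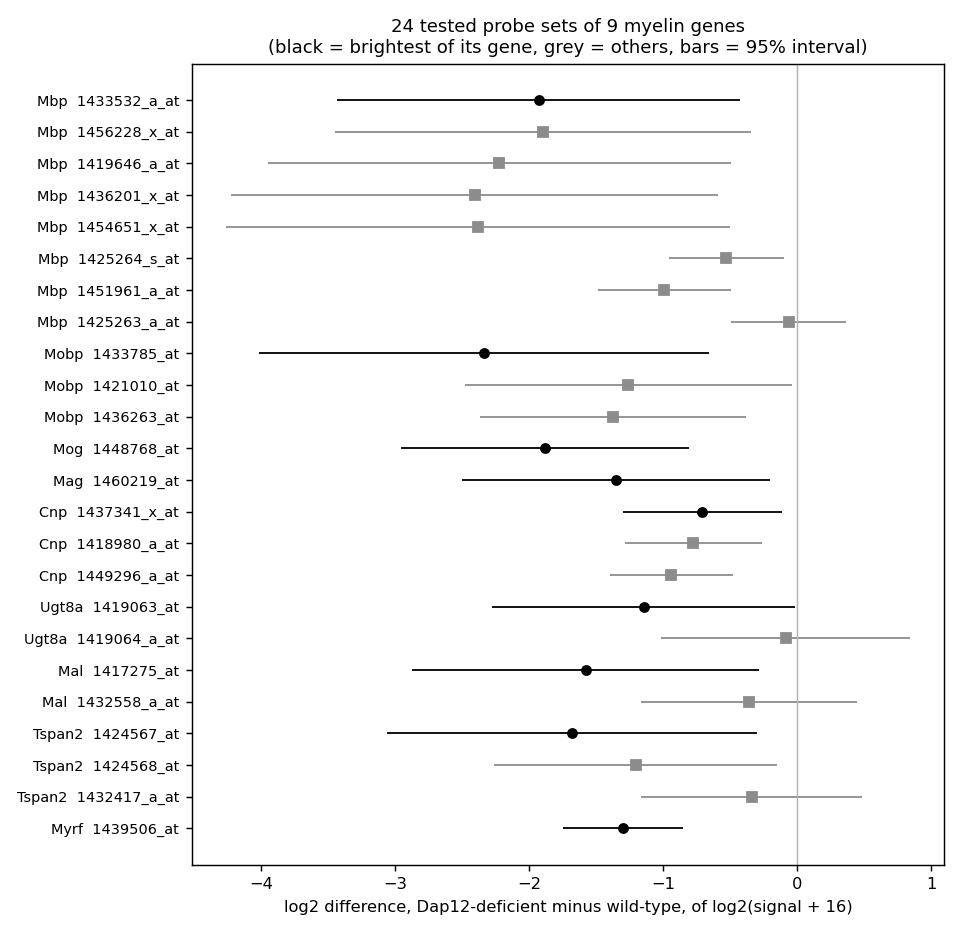
Log2 difference (Dap12-deficient minus wild-type, log2(signal + 16)) of the 24 tested probe sets of 9 myelin genes, with 95% intervals from limma, the brightest of each gene in black. All 24 points lie left of 0, the intervals of the bright Mbp and Mobp probe sets are wide, and those of Myrf and of 2 Cnp probe sets are narrow.

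The 8 probe sets of Mbp, a gene that also gives rise to golli transcripts found in immune cells and neurons, did not all behave alike. Besides the brightest, 4 gave log2 differences between -2.41 and -1.90 and the same order of the Dap12-deficient cultures. Probe set 1451961_a_at had signals of 37.3, 20.8 and 16.9 in Dap12-deficient and 68.2, 54.6 and 69.6 in wild-type cultures, so that its groups did not overlap (-0.99, SE 0.22, limma adjusted p = 0.293). Probe set 1425264_s_at had 103, 132 and 105 in Dap12-deficient and 149, 181 and 181 in wild-type cultures (-0.53, SE 0.19, adjusted p = 0.387). It too kept the groups apart, and Dap12-deficient culture 1, the brightest of its group by the main Mbp probe set, was the lowest here. Probe set 1425263_a_at had 14.8, 13.7 and 21.1 in Dap12-deficient and 18.6, 22.4 and 13.3 in wild-type cultures, with a log2 difference of -0.06 (SE 0.19, adjusted p = 0.928). The annotation used here does not tell which Mbp transcripts each probe set binds.

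**Figure D3:**
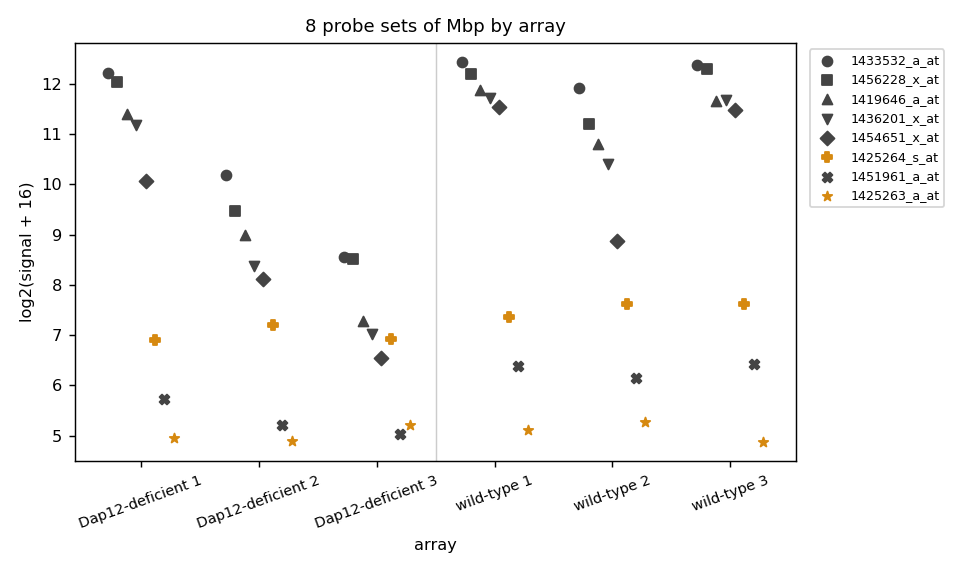
Log2(signal + 16) of the 8 probe sets of Mbp on each array, Dap12-deficient arrays on the left. The bright probe sets (black) drop over Dap12-deficient arrays 2 and 3, while 1425264_s_at and 1425263_a_at (orange, marked after their values were seen) stay within 1 unit over the 6 arrays.

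The other probe sets of Cnp differed from its brightest one. Probe set 1418980_a_at had signals of 169, 135 and 91.0 in Dap12-deficient and 231, 211 and 251 in wild-type cultures (-0.78, SE 0.23, limma adjusted p = 0.335). Probe set 1449296_a_at had 52.9, 72.5 and 44.6 in Dap12-deficient and 113, 117 and 136 in wild-type cultures (-0.94, SE 0.21, adjusted p = 0.293). Neither showed an overlap of the groups, whereas the brightest, whose identifier ends in _x_at and so marks a set that may bind several transcripts, did. For Tspan2, a second bright probe set gave -1.20 (SE 0.48) and a dimmer one -0.34 (SE 0.37). The dimmer probe sets of Mal and Ugt8a gave -0.36 (SE 0.36) and -0.09 (SE 0.42), and further tested sets of Mobp -1.37 (SE 0.45) and -1.26 (SE 0.55). The adjusted p of all 24 lay between 0.164 and 0.958.

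How far a single culture moved the values differed between the genes. For Myrf the log2 difference lay between -1.41 and -1.18 when 1 culture was left out, and for Mbp it moved further. Without Dap12-deficient culture 3 the log2 difference of Mbp was -1.05, and without Dap12-deficient culture 1 it was -2.88 with a limma adjusted p of 0.0332. Mobp (-3.37, adjusted p = 0.0332) and Tspan2 (-2.57, adjusted p = 0.0288) also passed without culture 1. In that fit 15 of 27022 probe sets passed in all, 2 of them higher. The other members did not pass, with limma adjusted p between 0.0542 (Mal) and 0.521 (Cnp). Myrf passed without Dap12-deficient culture 2 (-1.18, adjusted p = 0.0495), a fit in which 172 probe sets passed in all, 156 of them higher. The exact two-sided permutation p over the 6 arrays was 0.1 for Myrf, the smallest that 3 against 3 can give, 0.3 for Ugt8a and 0.2 for each of the other 7 genes.

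The genes outside the 9 whose levels followed them most closely were mostly known from the same cells. Likeness was measured as the root-mean-square difference over the 6 arrays between a gene and the mean of the 9, each centred, on the log2 scale, where a gene with no variation would have 1.05. The nearest was Cldn11, the claudin of the myelin tight junction, at 0.17, with signals of 195, 63.3 and 38.6 in Dap12-deficient and 260, 147 and 257 in wild-type cultures. Apod, a lipocalin that oligodendrocytes release, followed at 0.24 with 151, 26.0 and 24.3 in Dap12-deficient and 223, 76.3 and 188 in wild-type cultures. Gpr37, a receptor of differentiating oligodendrocytes, was at 0.27 and the calcium-binding protein S100b, of astrocytes and oligodendrocytes, at 0.32. Tmem88b was at 0.32, Ermn, a cytoskeletal protein of mature oligodendrocytes, at 0.36, Sytl2, an effector of vesicle transport, at 0.38 and Stmn4, a microtubule-destabilising stathmin, at 0.38. Of these 8, 5 were in the list of other sheath and junction proteins, and none passed the test, with log2 differences of -1.25 for Cldn11, -1.33 for Apod and -1.24 for Gpr37. Nearest to Mbp alone were Cldn11 (0.61), Apod (0.66), S100b (0.76) and Tmem88b (0.76). Among the members, Mag (0.21), Mal (0.22) and Mog (0.24) lay closest to the mean of the 9 and Mobp (0.63) and Cnp (0.91) farthest from it.

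**Figure D4:**
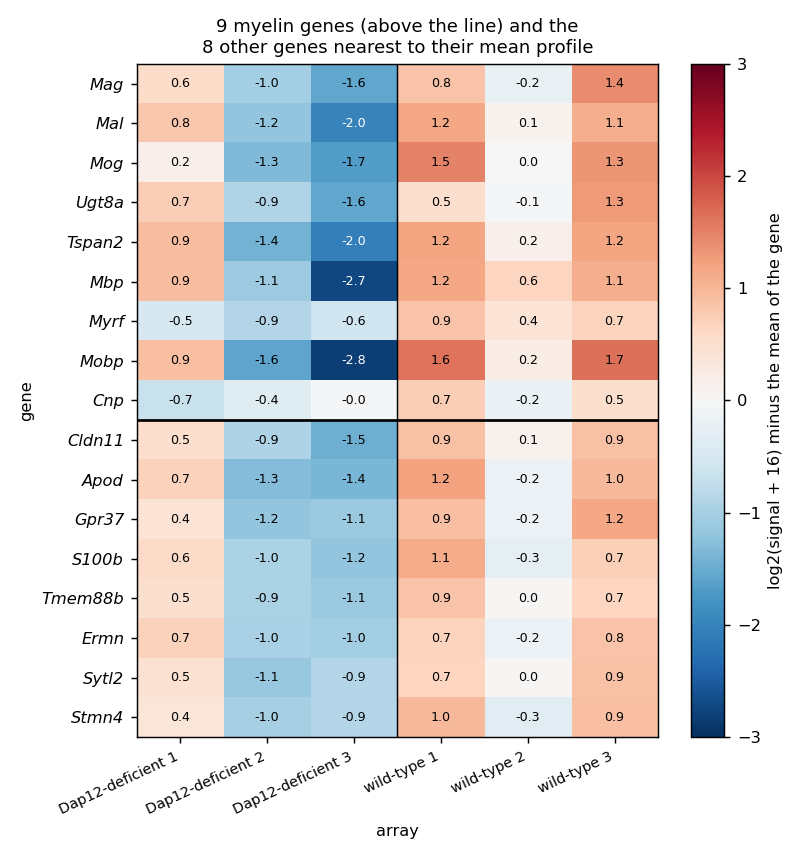
Log2(signal + 16) minus the mean of the gene over 6 arrays, for 9 myelin genes above the line and the 8 other genes nearest to their mean profile below it, with Dap12-deficient arrays on the left. Dap12-deficient arrays 2 and 3 are blue for all rows but the last of the upper block, Cnp, which is pale on array 3 where Mbp and Mobp are darkest.

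Other genes of myelin showed smaller differences of the same direction on average. The 33 tested genes for further proteins of the sheath, its junctions and its contact with the axon had a median log2 difference of -0.46, with 26 lower, 7 higher and 0 past the limma threshold. At an unadjusted p under 0.05 there were 13 lower and 0 higher, against 4.87% of all genes lower and 4.76% higher. The groups did not overlap for 6 genes, against 8.85% of all genes lower in that way. For 20 genes Dap12-deficient cultures 2 and 3 were below all wild-type cultures, against 14.9% of all genes. In 14 of those 20 culture 1 was within or above the wild-type range, which held for 63.6% of all genes whatever the place of cultures 2 and 3. Bcas1, a protein of early myelinating cells, had 589, 490 and 419 in Dap12-deficient and 1376, 626 and 1144 in wild-type cultures, without overlap (-0.99, SE 0.28, adjusted p = 0.335). Klk6, a secreted protease of mature oligodendrocytes, had 23.2, 10.1 and 3.10 in Dap12-deficient and 33.0, 23.1 and 47.0 in wild-type cultures (-0.88, SE 0.28, adjusted p = 0.35). Gsn, the actin-severing gelsolin, and Anln, a septin-binding protein that cycling cells use in division as well, did not overlap and had log2 differences of -0.68 (SE 0.20) and -0.61 (SE 0.21).

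Enzymes of myelin lipids differed less. The 12 tested genes had a median of -0.21, with 9 lower, 3 higher and 0 past the limma threshold, where 54.8% of all genes were lower. By an unadjusted p under 0.05, 3 were lower and 1 higher, against 4.87% and 4.76% of all genes. Fa2h, which hydroxylates the fatty acids of galactosylceramide, had 59.4, 17.5 and 9.91 in Dap12-deficient and 57.9, 42.4 and 59.4 in wild-type cultures (-0.77, SE 0.34, adjusted p = 0.463), the same order of the Dap12-deficient cultures as Mbp. Gal3st1, which sulphates galactosylceramide, had 27.9, 21.1 and 25.7 in Dap12-deficient and 39.3, 41.7 and 37.4 in wild-type cultures, a narrower gap without overlap (-0.44, SE 0.18, adjusted p = 0.425). Aspa, which frees acetate from N-acetylaspartate, had -0.46 (SE 0.20). Aspa is among the 3 lower, but its Dap12-deficient mean of 7.75 is below the filter on mean signal of 8.51. It passed only through its wild-type mean of 17.1, so its difference is no support. Ugcg, which makes glucosylceramide in most cells, was higher, with 0.69 (SE 0.30).

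Transcription factors of the lineage and genes of its earlier stages showed no common direction, where 54.8% of all genes tested were lower. Of 12 tested factors other than Myrf, 5 were lower and 7 higher (median 0.07), and 0 passed in limma, with 1 lower and 1 higher at an unadjusted p under 0.05, against the same 4.87% and 4.76%. Zfp536 had -0.70 (SE 0.26) and St18 -0.68 (SE 0.33), while Nkx2-2, a factor of precursors and of the step to differentiation, had 0.43 (SE 0.18) and Zeb2, which microglia also express, 0.70 (SE 0.36). Zfp536, the 1 lower factor by unadjusted p, had a Dap12-deficient mean of 5.16, below the filter on mean signal of 8.51. Like Myrf, it passed only through its wild-type mean, 19.25, so its difference is no support. The 11 genes of newly formed oligodendrocytes had 5 lower and 6 higher (median 0.01). The smallest p of these was that of the zinc transporter Tmem163, with 19.5 ± 10.6 in Dap12-deficient and 55.8 ± 7.64 in wild-type cultures (SD, n = 3 each, log2 difference -1.06, SE 0.25, adjusted p = 0.293), and the next by unadjusted p, 9630013A20Rik, Lims2 and Rras2, had -0.43, -0.29 and -0.30. Of 9 precursor genes, 5 were lower and 4 higher (median -0.03). Cspg4, the NG2 proteoglycan, was the exception in size, with 45.8, 55.4 and 43.3 in Dap12-deficient and 174, 165 and 162 in wild-type cultures (-1.51, SE 0.18, adjusted p = 0.0613), while Sox6, Cacng4 and Cspg5 had 0.51, 0.33 and -0.23. For Cspg4, Dap12-deficient culture 1 was below all wild-type cultures and lay between Dap12-deficient cultures 3 and 2.

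**Figure D5:**
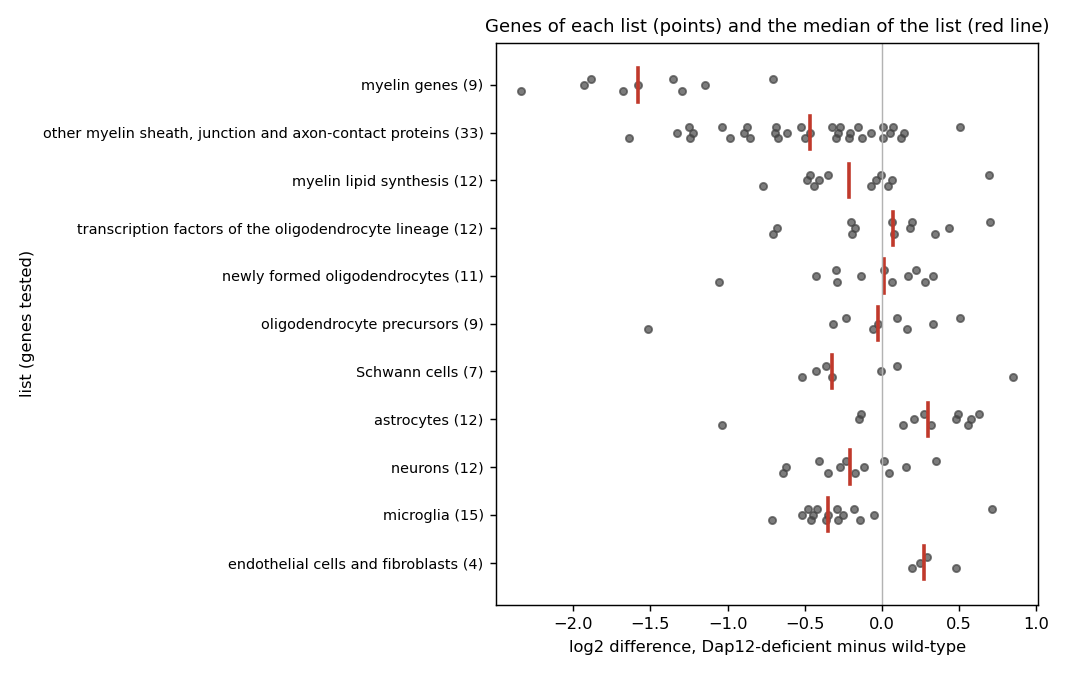
Log2 difference (Dap12-deficient minus wild-type) of the tested genes of each list, as points, with the median of the list in red and the number of genes tested in parentheses. The medians were -1.58 for the 9 myelin genes, -0.46 for 33 other sheath genes and near 0 for lineage factors, newly formed oligodendrocytes and precursors.

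Markers of other cells were measured beside the myelin genes, and 54.8% of all genes tested were lower. Schwann cells, which make myelin in peripheral nerve and share Mbp, Mag and Cnp, had 5 of 7 tested markers lower and 2 higher (median -0.33), with Pou3f1 at 0.85, Ngfr at -0.52, Erbb3 at -0.36 and Cdh19 at -0.43, and a summed signal between 3412 and 3738 in Dap12-deficient and between 3007 and 4336 in wild-type cultures. Ngfr, with a Dap12-deficient mean of 7.43, passed the filter on mean signal only through its wild-type mean of 16.9, so its difference is no support. Astrocyte markers had 9 of 12 higher (median 0.30), with a summed signal of 1028, 614 and 1615 in Dap12-deficient and 1058, 627 and 969 in wild-type cultures, so that Dap12-deficient culture 3, the lowest in Mbp, was the highest here. Slc1a2 and Slc1a3, which clear glutamate, had 0.58 (SE 0.22) and 0.63 (SE 0.26), and S100b was among the 3 lower genes. Ntsr2, also among the 3, had a Dap12-deficient mean of 7.70. It passed the filter on mean signal only through its wild-type mean of 10.2, so its difference is no support. Neuron markers had 8 of 12 lower (median -0.20), with the smallest p for Tubb3 at -0.64 and Gad1 at -0.62, and a sum between 478 and 599 in Dap12-deficient and between 583 and 729 in wild-type cultures. Microglia markers had 14 of 15 lower (median -0.35), with the smallest p for Gpr34 at -0.71 and Sall1 at -0.42. The 1 higher gene, named after its values were seen, was Cx3cr1 at 0.72 (SE 0.56). Lower microglia markers numbered 10 of 15 with only the 4 arrays with joined title numbers. They numbered 12 of 15 without Dap12-deficient culture 3 and also without wild-type culture 2. Markers of endothelial cells and fibroblasts had 4 of 4 tested higher (median 0.27), with Kdr at 0.48 and Col1a1 at 0.25. Their summed signal lay between 75.6 and 133 in Dap12-deficient and between 61.3 and 93.2 in wild-type cultures. Col1a1, with a wild-type mean of 6.63, passed the filter on mean signal only through its Dap12-deficient cultures, so its difference is no support. Without the filter 6 of 10 markers of this list were lower, so the 4 of 4 holds only for those that passed it. None of the markers passed the limma threshold, no signal in the table is exactly 0, and the part of these markers in the differences of the myelin genes was not tested.

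Sex-linked genes differed between the cultures as well. Xist, expressed from the inactive X chromosome, had 2514, 2483 and 1228 in Dap12-deficient and 251, 277 and 1164 in wild-type cultures (2.14, SE 0.50, limma adjusted p = 0.293). The Y-linked Eif2s3y had 64.5, 141 and 176 in Dap12-deficient and 611, 571 and 649 in wild-type cultures (-2.22, SE 0.29, limma adjusted p = 0.0998), and Kdm5d and Uty had -1.23 (SE 0.23) and -1.01 (SE 0.23). Dap12-deficient cultures had more of the first and less of the others, and the order of the Dap12-deficient cultures by Eif2s3y was the reverse of that by Mbp. Their part in the differences of the myelin genes was not tested.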

How the data were processed

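Total RNA was amplified and labelled with biotin by a kit with a pair of amplification cycles, per the labels. What was deposited is a table of linear intensity values per probe set, and the submitters' processing notes name GCOS without a version. The trimmed mean (2% left out at each end) was equal on all 6 arrays, so the deposited intensity values were used as scaled by the authors. Detection calls were not used here. Array numbers follow the order of deposit within a group. Of 45101 probe sets, 64 controls were left out, and 27022 with a mean signal at or above the 40th percentile (8.51) were tested with limma 3.58.1 in R 4.3.3 (lmFit, eBayes with intensity trend) on log2(signal + 16), two-sided, with Benjamini-Hochberg adjustment over all of them and a threshold of 0.05. The brightest probe set by the mean over 6 arrays stood for a gene, which gave 12875 genes. No pair of arrays shared a value at any probe set.

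The 9 members and the 11 further lists were chosen with earlier results of these data known. The genes named are the members with all probe sets, Tyrobp, the 8 genes nearest to the mean of the members and the 4 nearest to Mbp, the 4 genes with the smallest p of each list of myelin, lineage, precursor and Schwann cell genes, the 2 of each other list, and all sex-linked genes. List genes with no probe set of a single symbol were not analysed here. Older symbols and chromosomes came from RefSeq's GRCm38.p6 table, and 7 members had a promoter window that was used here. The fit was tested on simulated data with known changes. The number of arrays limits the precision. The alternatives are named in the closing section.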

Additional observations from a re-analysis of the deposited data

How the results depend on the processing

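The 9 genes were lower in Dap12-deficient cultures under every alternative run: quantile normalization, pseudocounts of 1 and 64, a common median, a filter at the 60th percentile (which left out Myrf), no filter, eBayes without trend or with a robust prior, array weights, leaving out probe sets ending in _x_at or _s_at, 1 probe set or the mean of all probe sets per gene, a term for the kind of title, leaving out each array, and, chosen after seeing the data, the 4 arrays with joined title numbers only. The median over the genes lay between -2.38 and -1.05 when 1 array was left out, was -2.02 and -0.997 with pseudocounts of 1 and 64, and moved by less than the spread between replicates in each. A common median shifted the median of all genes from -0.03 to -0.23 and that of the 9 genes to -1.80. The count of probe sets past the threshold was 2 as reported, 5 with a common median, 4 with array weights, 4 with 1 probe set per gene, 1 with the 4 arrays, and between 2 and 172 when 1 array was left out, 15 without Dap12-deficient replicate 1. Lower genes numbered 8 of 12 lineage factors with a common median and 2 of 9 with the stricter filter, against 5 of 12. They numbered 8 of 11 genes of newly formed oligodendrocytes with a common median, 8 with the 4 arrays and 4 to 8 when 1 array was left out, against 5. Of 12 astrocyte markers 5 were lower with a common median, 6 with the 4 arrays and 2 to 6 when 1 array was left out, against 3. Of 9 precursor genes 3 were lower with the mean of all probe sets and 3 to 6 when 1 array was left out, against 5. Of 10 endothelial and fibroblast markers 6 were lower without a filter, against 0 of 4. The cause of these shifts was not tested. No paired analysis was possible because the groups share no replicate number in the labels.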
